A study of Mus musculus with 6 samples.

Results

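Genes of cholesterol synthesis and of its regulation were followed in cells of the mouse ovarian surface that had been sorted by aldehyde dehydrogenase (ALDH) activity. The group was a fixed list of 29 genes: the enzymes from acetyl-CoA to cholesterol, the sterol-sensing regulators and 4 sterol transport genes. Of the 29 genes, 28 had at least 1 probe set assigned to that gene alone, out of 18193 such genes on the array, and the probe set of highest mean over the 6 arrays stood for the gene. All 28 were among the 12814 genes bright enough to be tested. The signal of Acat2, the cytosolic thiolase that opens the pathway, was not analysed here.

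Cholesterol is built from acetyl-CoA through mevalonate and isoprenoid units to squalene, which is closed into lanosterol and trimmed to cholesterol. SREBP transcription factors drive most genes of the pathway. When membranes of the endoplasmic reticulum are rich in sterol, Insig proteins hold Scap and its SREBP cargo there; when sterol is low, Scap escorts SREBP to the Golgi for cleavage. In the ovary, cholesterol is also the precursor of steroid hormones, and steroid-making cells both import and synthesise it.

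The samples were primary ovarian surface epithelium cells of virgin FVB/N females aged 8 weeks, with no genetic change, kept in culture for 24 hours. ALDH-positive cells and ALDH-negative cells were separated by ALDEFLUOR staining and flow cytometry, with inhibitor-treated cells as the gate control. Mice were pooled by 10, and both fractions of each of the 3 pools were hybridised, giving 3 arrays per fraction, each of them a mixture of animals. The comparison asked which genes set apart cells with high ALDH activity. Values below are log2 signals, and differences are ALDH-positive minus ALDH-negative; since an array sums over cells, fewer cells of a type and less RNA per cell cannot be told apart.

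One array, that of ALDH-negative cells in pool 2, was unlike the rest: its correlations across probe sets were 0.558 to 0.679, against 0.850 to 0.974 among the other 5 arrays. There the 3′ probe set of beta-actin read 5.03, against 9.56 to 11.04 elsewhere. Differences are therefore given by array or pool, or with and without pool 2. Both arrays of pool 3 had weak 5′ signal: Gapdh read 5.30 (ALDH-positive) and 3.59 (ALDH-negative) higher at its 3′ than at its 5′ probe set, against 0.90 to 2.15 on the arrays of pools 1 and 2. The sort itself was visible in Aldh1a2, a retinaldehyde dehydrogenase, which differed by 5.11, 5.64 and 4.77 in pools 1, 2 and 3. It was less visible in Aldh1a1, the other gene taken as a check, which differed by 0.75, 6.92 and 0.61. Aldh1a1 was bright in ALDH-negative cells of pools 1 and 3 (8.85 and 9.39) and read 2.15 in those of pool 2. Markers of the surface epithelium were low in the ALDH-negative samples in spite of their tissue label: the mean of the 12 tested markers was 7.65, 7.53 and 7.14 in ALDH-positive cells, against 3.74, 4.02 and 4.09 in ALDH-negative cells.

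Promoter sequences of 5 genes are shown because these genes had lower signal in ALDH-positive cells in each of the 3 pools, on the probe set that stood for the gene. The direction of the mean depends on the scaling: it turned to 0.016 for Insig1 in the values as deposited and to 0.046, 0.077 and 0.18 for Pmvk, Hsd17b7 and Insig1 with median-centred arrays. For Npc2 it turned to 0.22 in the mean of its tested probe sets, and for Hsd17b7 it came to -0.02. They are Mvd at chr8:122443423-122443672 (minus strand), Pmvk at chr3:89454291-89454540 (plus strand), Hsd17b7 at chr1:169969206-169969455 (minus strand), Insig1 at chr5:28071162-28071411 (plus strand) and Npc2 at chr12:84773113-84773362 (minus strand). Each is the 250 bases before a gene start in RefSeq, build GRCm38.p6, written 5′ to 3′ along the gene; for Pmvk, which has 2 starts in that table, the first is shown. Capitals mark CCAAT on either strand, the core of the site of NF-Y, a factor that acts beside SREBP at sterol genes, and CACGTG, an E-box.
Mvd: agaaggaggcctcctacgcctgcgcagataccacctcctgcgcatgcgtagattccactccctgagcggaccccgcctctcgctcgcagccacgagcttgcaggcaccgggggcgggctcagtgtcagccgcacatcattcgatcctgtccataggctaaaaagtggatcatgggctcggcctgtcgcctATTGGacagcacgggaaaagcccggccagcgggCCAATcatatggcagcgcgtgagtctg
Pmvk: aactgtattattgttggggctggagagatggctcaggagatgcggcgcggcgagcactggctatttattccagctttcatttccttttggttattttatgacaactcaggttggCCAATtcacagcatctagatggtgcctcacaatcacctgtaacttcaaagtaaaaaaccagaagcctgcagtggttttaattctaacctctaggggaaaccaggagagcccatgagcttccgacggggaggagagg
Hsd17b7: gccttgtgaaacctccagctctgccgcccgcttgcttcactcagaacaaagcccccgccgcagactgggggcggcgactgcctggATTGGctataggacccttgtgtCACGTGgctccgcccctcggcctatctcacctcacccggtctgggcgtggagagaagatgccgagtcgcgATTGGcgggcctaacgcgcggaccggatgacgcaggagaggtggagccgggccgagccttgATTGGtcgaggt
Insig1: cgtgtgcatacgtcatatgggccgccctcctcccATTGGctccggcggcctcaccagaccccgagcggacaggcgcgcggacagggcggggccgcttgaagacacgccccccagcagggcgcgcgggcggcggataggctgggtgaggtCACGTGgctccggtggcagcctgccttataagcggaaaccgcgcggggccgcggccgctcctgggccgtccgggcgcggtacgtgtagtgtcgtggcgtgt
Npc2: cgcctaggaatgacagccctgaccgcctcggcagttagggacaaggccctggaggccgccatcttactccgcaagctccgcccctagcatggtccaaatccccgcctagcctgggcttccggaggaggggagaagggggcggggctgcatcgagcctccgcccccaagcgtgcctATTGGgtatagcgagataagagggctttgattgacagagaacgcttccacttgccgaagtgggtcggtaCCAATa

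Of the 29 genes, 24 had a promoter window in the RefSeq table, Acat2 among them. CCAAT, searched on both strands in the 250 bases before any listed start, was in the windows of 21 of the 24 (87.5%), against 39.7% of the 10298 tested genes with a window and 37.5% of all 27025 genes with one. The genes without it were Scap, Abca1 and Acat2. CACGTG was in 6 of the 24 (25.0%), against 9.69% of the tested genes; these were Hsd17b7, Sc5d, Dhcr7, Scap, Insig1 and Abca1. The stricter letters TCACNCCAC, a form of the sterol regulatory element, were found in Hmgcs1 alone (4.17%, against 1.28% of the tested genes). No test was made on these shares. The 3 motifs did not overlap each other in the 5 windows shown, and a match or its absence describes only these letters in this window.

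Most sterol enzymes had lower signal in ALDH-positive cells of pools 1 and 3, by amounts that did not pass the test. Of the 28 genes, 15 (53.6%) lay lower in ALDH-positive cells in both pools 1 and 3, against 25.7% of all tested genes, and 2 (7.14%) lay higher in both, against 27.8%. The median difference of the 28 genes was -0.53 in pool 1 and -0.19 in pool 3, against medians of 0.01 and 0.03 over all tested genes. In pool 2 it was 2.15, against -0.18 over all tested genes, and 19 of the 28 (67.9%) lay higher there, against 47.3%. Over the 3 pools 16 genes lay higher and 12 lower, with a median of 0.42; without pool 2, 9 lay higher and 19 lower, with a median of -0.33. The sign of the median in pool 2 was opposite to that in pools 1 and 3.

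No gene of the group passed limma's moderated test with Benjamini-Hochberg adjustment at 0.05, with adjusted p from 0.895 to 0.991 over the 3 pools and from 0.909 to 0.997 without pool 2. No tested gene of the array passed in either fit (0% and 0% of 12814). At an unadjusted p below 0.05, none of the 28 passed over the 3 pools, where 2.36% of all genes did. Without pool 2, 2 passed as lower (Mvd and Tm7sf2, 7.14%), where 1.87% of all genes did, and none as higher, where 2.71% did. By the probe sets that stood for the genes, 5 genes lay lower in ALDH-positive cells in all 3 pools (17.9%, against 11.4% of all genes). Higher in all 3 was Lbr alone (3.57%, against 11.3%). The arrays of the fractions did not overlap for Mvd and Npc2, both lower (7.14%, against 3.32%), and for no gene as higher (against 3.55%).

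**Figure D1:**
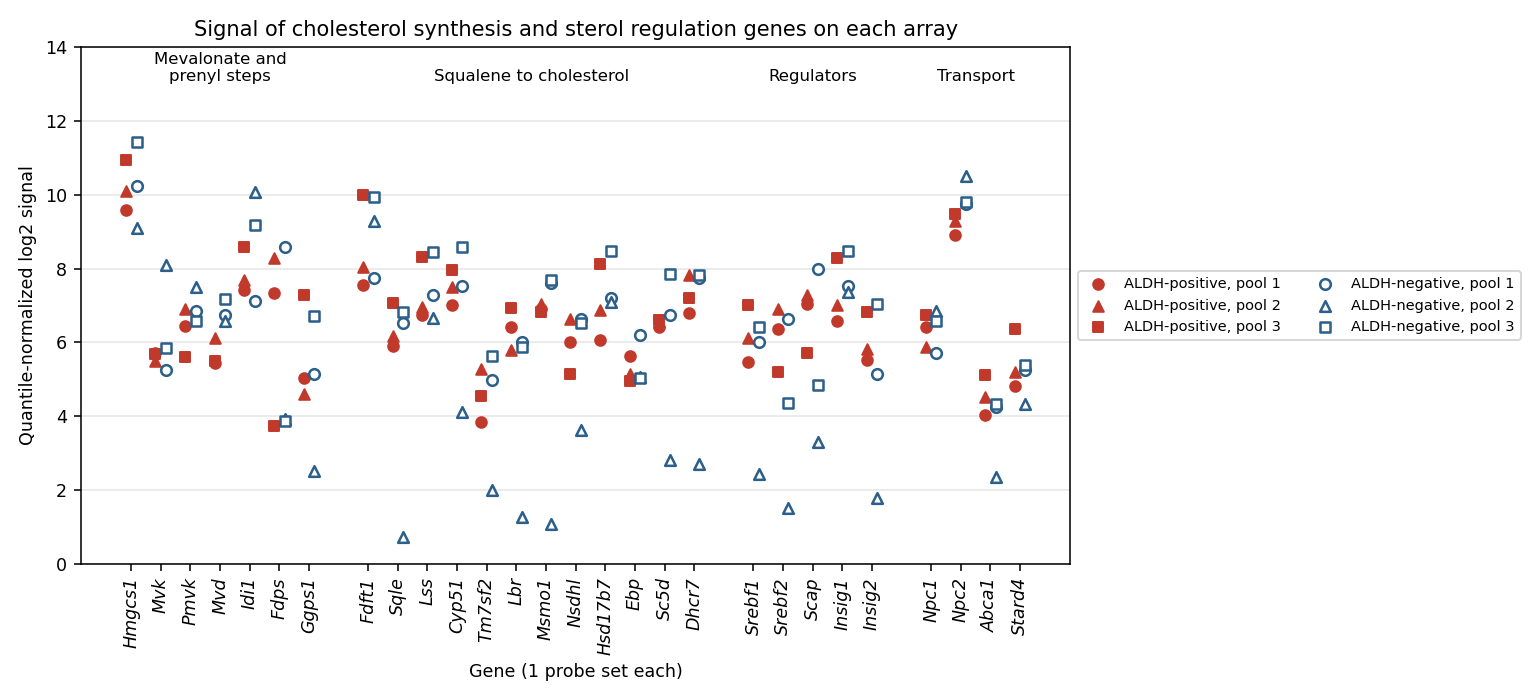
Quantile-normalized log2 signal (y axis) of the 28 genes (x axis, grouped by role) on each array; filled red symbols are ALDH-positive and open blue symbols ALDH-negative samples, with circles, triangles and squares for pools 1, 2 and 3. The open triangles of 10 genes lie below 2.73, the level under which probe sets were left out as dim, while no other array does so for any of the 28 genes.

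**Figure D2:**
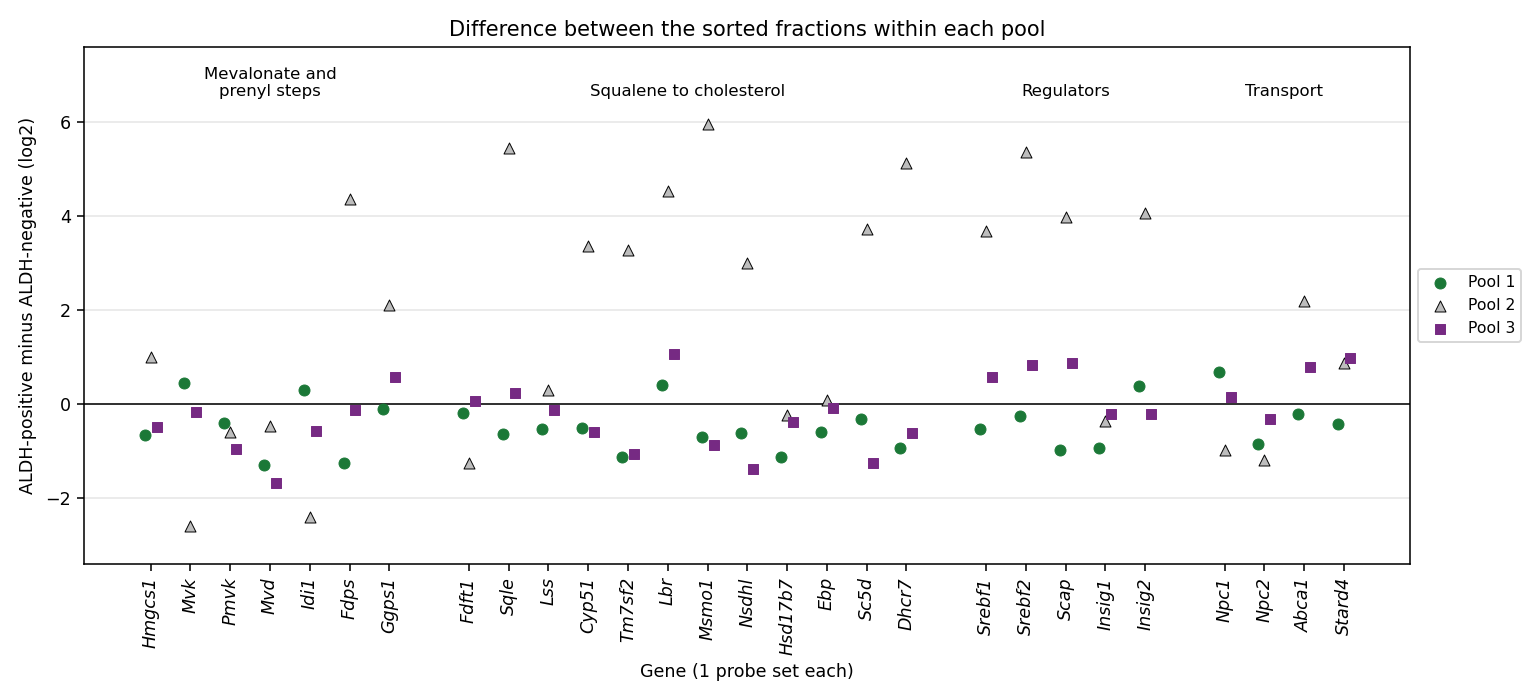
Difference between ALDH-positive and ALDH-negative cells (log2, y axis) within pool 1 (circles), pool 2 (grey triangles) and pool 3 (squares) for each gene (x axis). Pool 2 differences reach 5.96 for Msmo1, while the differences of pools 1 and 3 lie between -1.68 (Mvd in pool 3) and 1.07 (Lbr in pool 3).

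Among the enzymes of mevalonate and its isoprenoid products, only Mvd had fractions that did not overlap, on the probe set that stood for the gene. Of all tested genes, 3.32% were lower in ALDH-positive cells without overlap. Mvd, mevalonate diphosphate decarboxylase, which makes isopentenyl diphosphate, read 5.44, 6.12 and 5.48 in ALDH-positive cells of pools 1 to 3, against 6.73, 6.58 and 7.17 in ALDH-negative cells. Every ALDH-positive value lay below every ALDH-negative one, at 5.68 ± 0.38 against 6.83 ± 0.30 (SD, n = 3 each). The difference was -1.14 (SE 0.66, limma adjusted p = 0.895) over the 3 pools and -1.49 (SE 0.40, unadjusted p = 0.0122, adjusted p = 0.909) without pool 2. The probe set is of the kind that can match more than one transcript. The second probe set of Mvd, at 4.44, 4.45 and 4.09 against 5.57, 4.63 and 2.95, lay higher in ALDH-positive cells of pool 3. Its fractions overlapped, with a difference of -0.06 (SE 0.72), or 0.0025 without pool 2.

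Pmvk, phosphomevalonate kinase, which acts just before Mvd, read 6.45, 6.90 and 5.61 in ALDH-positive cells, against 6.85, 7.49 and 6.57 in ALDH-negative cells. It was lower in each pool although the fractions overlapped, with a difference of -0.66 (SE 0.64), and of -0.69 (SE 0.41) without pool 2. Hmgcs1, the HMG-CoA synthase of the cytosol, differed by -0.65 and -0.48 in pools 1 and 3 and by 1.01 in pool 2. All 5 of its probe sets lay lower in ALDH-positive cells in both pools 1 and 3. Fdps, which makes farnesyl diphosphate, differed by -1.25, 4.38 and -0.12 in pools 1 to 3. Its pool 3 values were low in both fractions (3.74 and 3.86 in ALDH-positive and ALDH-negative cells, against 7.33 and 8.58 in pool 1), in the pool with weak 5′ signal; the part of that signal in them was not tested.

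Idi1, the isomerase of isopentenyl diphosphate, read 7.42, 7.68 and 8.59 in ALDH-positive cells, against 7.11, 10.09 and 9.17 in ALDH-negative cells. The highest value was that of the array that stood apart, and the difference of -0.89 (SE 0.76) shrank to -0.13 (SE 0.44) without pool 2. Its second probe set, at 7.43, 7.87 and 8.97 against 7.58, 6.26 and 8.99, was lowest on that array. Mvk, mevalonate kinase, differed by 0.45, -2.60 and -0.17 in pools 1 to 3, and both of its probe sets were highest on that array. Ggps1, which makes geranylgeranyl diphosphate for protein prenylation, read 5.05, 4.61 and 7.28 in ALDH-positive cells, against 5.14, 2.50 and 6.70 in ALDH-negative cells. Its fractions overlapped, with a difference of 0.86 (SE 0.72), and of 0.24 (SE 0.42) without pool 2. A second tested probe set of Ggps1 differed by 0.13, 1.43 and 1.81 in pools 1 to 3, higher in each. The difference on that probe set was 1.12 (SE 0.68), or 0.97 without pool 2.

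From squalene to cholesterol, 9 of 12 enzymes lay lower in ALDH-positive cells in both pools 1 and 3, against 25.7% of all tested genes. In pool 2, 10 of the 12 lay higher, against 47.3%. The median difference of the 12 was -0.61 and -0.49 in pools 1 and 3 and 3.33 in pool 2. Msmo1, the sterol methyl oxidase, read 6.90, 7.04 and 6.81 in ALDH-positive cells, against 7.61, 1.08 and 7.69 in ALDH-negative cells. Pools 1 and 3 thus differed by -0.71 and -0.88, and the array that stood apart turned the mean to 1.46 (SE 1.33). Without pool 2 the mean was -0.79 (SE 0.40, limma adjusted p = 0.909). A second tested probe set of Msmo1 differed by 0.07, 0.71 and -2.38 in pools 1 to 3, lower in pool 3 only.

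Dhcr7, the reductase of the last step, showed the arrangement of the first probe set of Msmo1. It read 6.80, 7.84 and 7.22 in ALDH-positive cells, against 7.74, 2.69 and 7.84 in ALDH-negative cells. Its ALDH-positive value of pool 2 lay level with the higher ALDH-negative values, and its difference was 1.20 (SE 1.20), or -0.78 (SE 0.40) without pool 2. Nsdhl, a sterol dehydrogenase that acts with Msmo1 in demethylation, read 5.9995, 6.62 and 5.14 in ALDH-positive cells, against 6.62, 3.62 and 6.51 in ALDH-negative cells. Its difference was 0.33 (SE 0.94), or -0.9997 (SE 0.43, unadjusted p = 0.0618) without pool 2.

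Hsd17b7, the ketoreductase that completes the same demethylation, differed by -1.13, -0.23 and -0.37 in pools 1 to 3, negative in each pool, with a mean of -0.58 (SE 0.65). Of its other probe sets, the brightest read 5.42, 6.17 and 2.91 in ALDH-positive cells, against 6.69, 1.99 and 4.26 in ALDH-negative cells, lower in pools 1 and 3 only. The remaining tested probe sets of Hsd17b7 differed by -0.89, 1.34 and -0.72, and by -0.48, 0.37 and 0.31. Only the probe set that stood for Hsd17b7, also of the kind that can match several transcripts, lay lower in pool 2. The mean difference over its tested probe sets was -0.02. Sc5d, the desaturase before Dhcr7, differed by -0.32, 3.73 and -1.25. Cyp51, the lanosterol demethylase, differed by -0.51, 3.37 and -0.60. On the probe sets that stood for them, Hsd17b7, Sc5d and Cyp51 differed by -0.75 (SE 0.43), -0.79 (SE 0.44) and -0.56 (SE 0.40) without pool 2. The large positive pool 2 values of Sc5d and Cyp51 were not seen on their other tested probe sets. That of Sc5d differed by -0.28, -0.47 and -2.04 in pools 1 to 3, lower in each. Those of Cyp51 differed by -0.79, -0.22 and -0.07, lower in each pool, and by -0.46, 0.63 and -0.55.

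Tm7sf2 and Lbr encode reductases of one and the same sterol double bond, and Lbr is in addition the lamin B receptor of the nuclear envelope. Tm7sf2 read 3.85, 5.29 and 4.56 in ALDH-positive cells, against 4.98, 2.01 and 5.62 in ALDH-negative cells. It was lower in pools 1 and 3, by -1.13 and -1.06, and without pool 2 its difference was -1.10 (SE 0.40, unadjusted p = 0.0357, adjusted p = 0.909), against 0.36 (SE 0.99) with it. Lbr read 6.41, 5.79 and 6.93 in ALDH-positive cells, against 5.997, 1.25 and 5.87 in ALDH-negative cells. By the probe sets that stood for the genes, Lbr was the enzyme that lay higher in ALDH-positive cells in all pools. Its difference was 2.01 (SE 0.92, limma unadjusted p = 0.0624, adjusted p = 0.895), or 0.74 (SE 0.42) without pool 2. The difference between Tm7sf2 and Lbr was not tested.

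Sqle, squalene epoxidase, an oxygen-dependent control point of the pathway, read 5.90, 6.17 and 7.06 in ALDH-positive cells, against 6.54, 0.73 and 6.83 in ALDH-negative cells. Apart from the pool 2 array the fractions overlapped, and its difference of 1.68 (SE 1.17) came to -0.20 (SE 0.44) without pool 2. Fdft1, squalene synthase, differed by -0.19, -1.26 and 0.06. Lss, which closes the ring to lanosterol, differed by -0.52, 0.30 and -0.12, and Ebp, a sterol isomerase, by -0.59, 0.08 and -0.08. For these 3 enzymes the differences of pools 1 and 3 were smaller than the SE of the fit over all pools (0.66, 0.64 and 0.64). This holds for the probe set that stood for each gene. Another probe set of Lss differed by -0.69, -0.85 and -0.84 (SE 0.63), lower in each pool, and the remaining one by -0.57, 1.84 and -0.16.

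**Figure D3:**
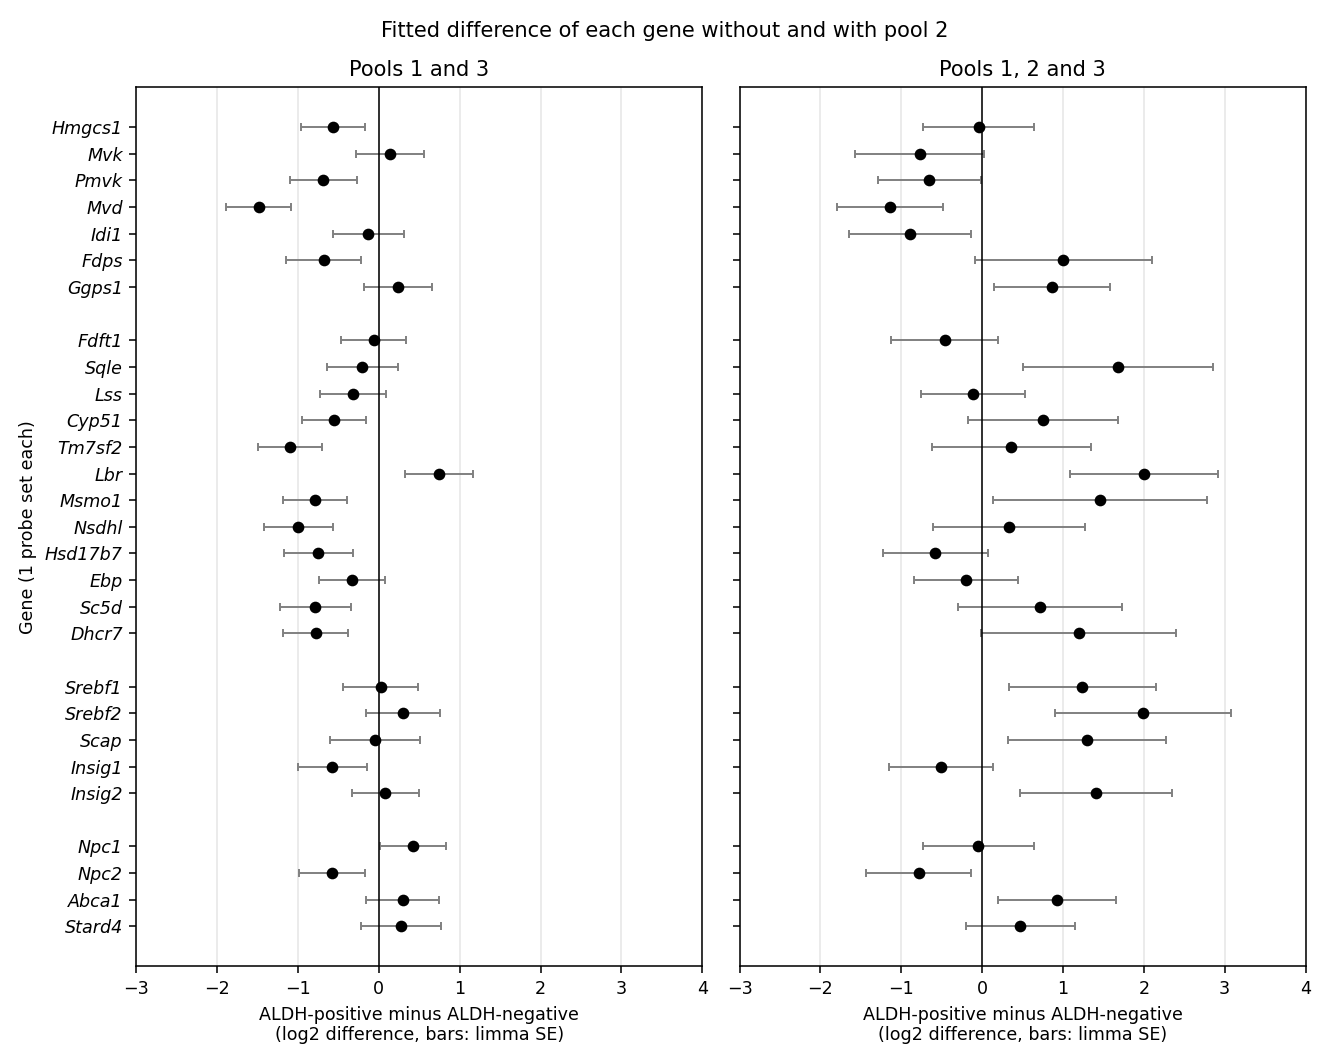
Fitted log2 difference of each gene (points) with its limma SE (bars), from pools 1 and 3 (left) and from all 3 pools (right). Of the 28 genes, 19 lie below 0 at left and 12 at right, and the SE of most genes is wider at right.

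Among the regulators, Insig1 lay lower in ALDH-positive cells in each pool, and the genes of SREBP and Scap changed direction between pools 1 and 3. Insig1, an anchor of Scap and itself an SREBP target, read 6.58, 7.01 and 8.28 in ALDH-positive cells, against 7.52, 7.37 and 8.49 in ALDH-negative cells. The fractions overlapped, because both arrays of pool 3 were high, and the difference was -0.51 (SE 0.64), or -0.58 (SE 0.43) without pool 2. Insig2, its less sterol-dependent relative, read 5.53, 5.83 and 6.83 in ALDH-positive cells, against 5.15, 1.77 and 7.05 in ALDH-negative cells. Pools 1 and 3 disagreed in sign, with a difference of 1.41 (SE 0.94) over all pools and 0.08 (SE 0.42) without pool 2. A second tested probe set of Insig2 differed by -0.15, 1.27 and -0.21 in pools 1 to 3, lower in both pools 1 and 3. The remaining one differed by -0.66, 0.44 and 1.03, with signs opposite to the first in pools 1 and 3.

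Srebf2, whose product SREBP-2 drives cholesterol genes, read 6.37, 6.90 and 5.19 in ALDH-positive cells, against 6.62, 1.52 and 4.35 in ALDH-negative cells. Srebf1, which encodes SREBP-1, the form tied more to fatty acid genes, read 5.47, 6.12 and 7.01 in ALDH-positive cells, against 6.01, 2.44 and 6.43 in ALDH-negative cells. Scap, the escort protein, read 7.03, 7.28 and 5.70 in ALDH-positive cells, against 8.00, 3.30 and 4.83 in ALDH-negative cells. All of them were lower in ALDH-positive cells of pool 1 and higher in those of pool 3, and their lowest value was on the array that stood apart. The differences of Srebf2, Srebf1 and Scap were 1.99 (SE 1.09), 1.24 (SE 0.91) and 1.29 (SE 0.98) with pool 2, and 0.30, 0.02 and -0.05 without it. The second probe set of Srebf2 read 4.56, 4.48 and 3.54 in ALDH-negative cells of pools 1 to 3, and was not lowest in pool 2.

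Of the transport genes, only Npc2 had fractions that did not overlap, on the probe set that stood for the gene. Of all tested genes, 3.32% were lower in ALDH-positive cells without overlap. Npc2, a soluble lysosomal protein that hands cholesterol to Npc1, read 8.91, 9.30 and 9.49 in ALDH-positive cells, against 9.76, 10.50 and 9.80 in ALDH-negative cells. All ALDH-positive values lay below all ALDH-negative ones, with a difference of -0.79 (SE 0.65, adjusted p = 0.895), or -0.58 (SE 0.41) without pool 2. A second tested probe set of Npc2 read 8.06, 8.27 and 4.80, against 8.60, 3.26 and 5.56, lower in pools 1 and 3 only.

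Npc1, the lysosomal membrane protein that exports the cholesterol, read 6.42, 5.87 and 6.73 in ALDH-positive cells, against 5.72, 6.86 and 6.57 in ALDH-negative cells. Its difference was -0.05 (SE 0.68), or 0.42 (SE 0.41) without pool 2, opposite to that of Npc2. Abca1, the efflux pump induced by oxysterols, read 4.03, 4.53 and 5.13 in ALDH-positive cells, against 4.24, 2.34 and 4.33 in ALDH-negative cells. Stard4, a cytosolic sterol carrier and SREBP target, read 4.83, 5.20 and 6.36 in ALDH-positive cells, against 5.26, 4.33 and 5.39 in ALDH-negative cells. Both were lower in ALDH-positive cells of pool 1 and higher in those of pools 2 and 3, with differences of 0.93 (SE 0.73) and 0.47 (SE 0.67), or 0.29 and 0.27 without pool 2. Another probe set of Stard4 read 3.83, 4.55 and 2.58 in ALDH-positive cells, against 4.96, 2.63 and 4.57 in ALDH-negative cells. It lay lower in ALDH-positive cells of pools 1 and 3, unlike the first in pool 3, with a difference of -0.40 (SE 0.88), or -1.56 (unadjusted p = 0.0136) without pool 2.

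The array that stood apart did not treat the genes alike. It read below both other ALDH-negative arrays for 20 of the 28 genes (71.4%, against 38.7% of all tested genes) and above both for 5 (17.9%, against 45.2%), namely Mvk, Pmvk, Idi1, Npc1 and Npc2. It was under the dim level of 2.73 for 10 genes (35.7%, against 13.4%). Of 15 genes with more than 1 tested probe set, the probe sets had the same sign for 5 over all pools and for 12 without pool 2. Over the 52 tested probe sets of the group, 31 lay lower in ALDH-positive cells in both pools 1 and 3 and 3 lay higher in both. Several of these probe sets belong to the same gene, and the share over all tested probe sets was not computed.

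ALDH-positive samples also differed among themselves. Although the ALDH-positive arrays of pools 1 and 2 correlated at 0.974, 23 of the 28 genes (82.1%) read higher in pool 2, against 43.8% of all tested genes. The mean of the 28 genes was 6.34, 6.68 and 6.85 in ALDH-positive cells of pools 1 to 3, against 6.80, 4.81 and 7.02 in ALDH-negative cells. The ALDH-positive cells of pool 2 read below the ALDH-negative cells of pool 1 for 17 of the 28 genes (60.7%, against 50.1%), a comparison across pools.

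Other genes of lipid synthesis were examined from lists that name the rest of the pathway. Of 24 further sterol genes, 15 were tested and none passed in either direction; 10 lay lower and 5 higher without pool 2, where 53.5% of all tested genes lay higher, with a median of -0.10 (0.34 with pool 2). Pgrmc1, a haem-binding partner of sterol enzymes, differed by 1.76 (SE 1.07), Erlin2, a protein of the endoplasmic reticulum membrane, by 1.19 (SE 0.83) and the mitochondrial thiolase Acat1 by 0.88 (SE 0.67). Without pool 2 they differed by 0.09, 0.23 and 0.50.

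Of 15 fatty acid targets of SREBP-1, all tested, none passed. Without pool 2, 11 lay lower and 4 higher, where 53.5% of all tested genes lay higher. The median of the 15 was -0.42 without pool 2 (0.18 with it). In both pools 1 and 3, 9 of the 15 lay lower, against 25.7% of all tested genes. Acss2, which makes acetyl-CoA from acetate for lipid synthesis, read 6.03, 7.06 and 9.41 in ALDH-positive cells, against 7.65, 9.48 and 10.18 in ALDH-negative cells. It was lower in each pool, with overlap between the fractions, by -1.60 (SE 0.68, unadjusted p = 0.0480, adjusted p = 0.895), or -1.19 without pool 2. The fatty acid elongase Elovl5 was lower in each pool as well, by -0.98, -2.09 and -0.84 (mean -1.31, SE 0.66, or -0.91 without pool 2). The desaturase Fads1 differed by -0.03, 5.69 and 0.92. Of 11 users of isoprenoids, which prenylate proteins or make dolichol, ubiquinone and haem, 10 were tested and none passed. Without pool 2, 8 of the 10 lay lower, where 53.5% of all tested genes lay higher. The median of the 10 users was -0.25 without pool 2 (-0.23 with it). Among them Fntb, a farnesyltransferase subunit, differed by -0.92 (SE 0.67), Cox10 by -0.97 (SE 0.76) and Dhdds, which makes dolichol precursors, by -0.84 (SE 0.70). Without pool 2 these differences were smaller, at -0.57, -0.14 and -0.28.

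Markers of steroid-making cells moved in the same direction in the same pools. Of 9 listed, 5 were tested and none passed. In both pools 1 and 3, 4 of the 5 lay lower in ALDH-positive cells, against 25.7% of all tested genes. The median difference of the 5 was -0.69, 3.73 and -0.44 in pools 1 to 3. Cyp11a1, which cleaves cholesterol in mitochondria, differed by -0.74, 6.60 and -1.15, Fdx1, its electron donor, by -0.45, 4.76 and -0.32 and Hsd3b1, which acts on its product, by -0.33, 2.91 and -0.44. The log2 of the summed linear signal of the 5 was 11.67 to 12.24 in ALDH-positive cells, against 8.15 to 12.79 in ALDH-negative cells, or 12.15 to 12.79 without pool 2. No marker is at 0 on this scale, and Cyp17a1 was too dim to be tested on these arrays. The part of these cells in the differences of the cholesterol genes was not tested.

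Granulosa markers, 8 tested of 10, had medians of -0.16, 2.44 and -0.20 in pools 1 to 3, with Fshr too dim. Their summed signal was 9.95 to 10.63 in ALDH-positive cells, against 7.43 to 11.07 in ALDH-negative cells, or 10.07 to 11.07 without pool 2. Stroma markers, 7 tested of 8, had medians of 1.45, 1.21 and -0.24, and their summed signal was 9.91 to 10.21 in ALDH-positive cells, against 6.98 to 8.92 in ALDH-negative cells. Endothelium (3 tested of 6) and leukocyte markers (4 tested of 8) had median differences of -0.0078 and -0.73 over all pools and of -0.29 and 0.01 without pool 2, with a leukocyte median of -2.28 in pool 2. The 12 surface epithelium markers, none of which passed either, lay higher in ALDH-positive cells in both pools 1 and 3, with a summed signal of 11.25 to 11.64, against 8.13 to 9.04 in ALDH-negative cells.

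**Figure D4:**
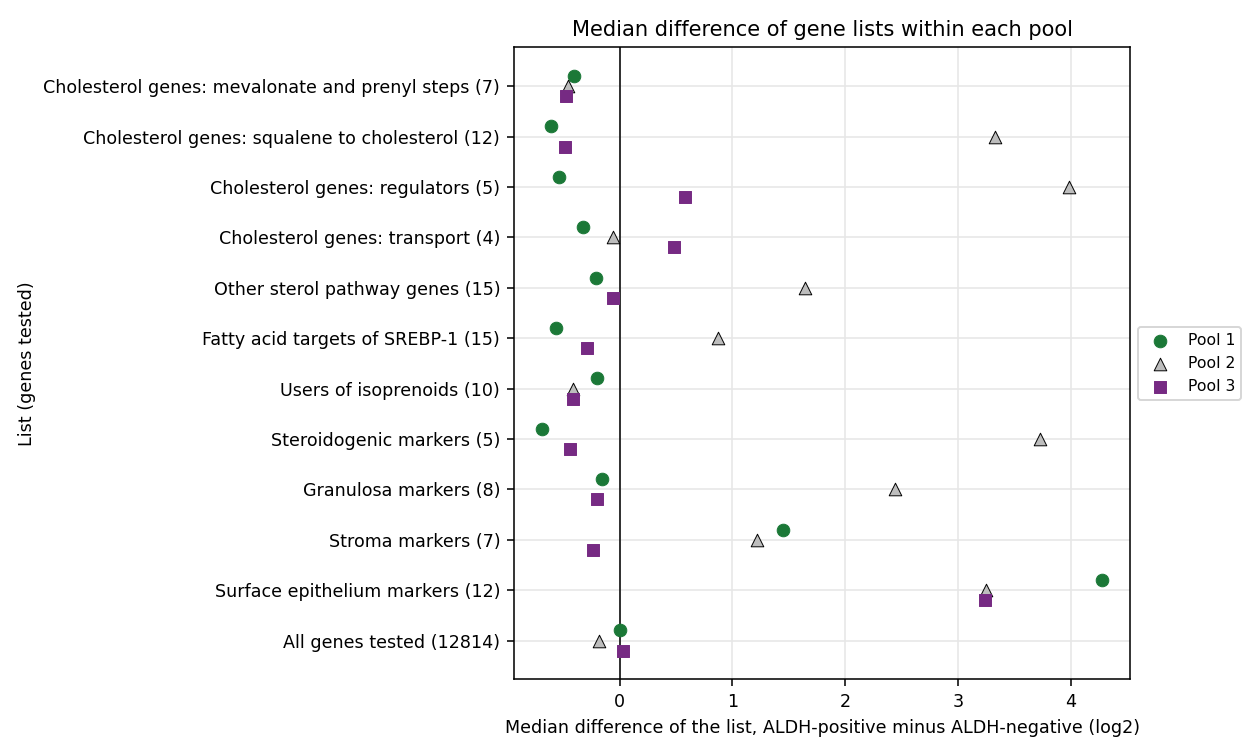
Median log2 difference, ALDH-positive minus ALDH-negative (x axis), of each gene list (y axis, number of genes tested in brackets) in pool 1 (circles), pool 2 (grey triangles) and pool 3 (squares). Enzymes from squalene to cholesterol and steroidogenic markers lie below 0 in pools 1 and 3 and above 3 in pool 2, while surface epithelium markers lie above 3 in each pool.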

How the data were processed

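RNA of 6 samples was amplified (Ovation Pico WTA kit) and measured on Affymetrix mouse expression arrays, per the labels' protocols. The deposited table holds 1 value for each of 45101 probe sets per array, taken as log2 signal from its range of 0.035 to 13.05; no source used here gives the authors' background correction, summarisation or normalization. After removal of 64 control probe sets the arrays, whose medians differed by 0.457, were quantile normalized. Probe sets in the lower 40% by mean (under 2.73) were removed, leaving 27022. Control values are as deposited. Symbols came from GEO's platform annotation, checked by Entrez identifier against RefSeq (GRCm38.p6): of 45037 probe sets, 34945 had 1 symbol, 932 several and 9160 none, and 34741 of those with 1 matched.

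The test was limma 3.58.1 (lmFit and eBayes under R 4.3.3) with pool as block; p-values of the 27022 probe sets were adjusted together by the Benjamini-Hochberg method. A count over genes uses the probe set that stands for the gene. The replicate number is the pool, and the pairing comes from the series design; the deviations of the paired arrays about the fraction means had correlations of 0.34, -0.19 and 0.31 in pools 1, 2 and 3. With 3 pools, or 2 without pool 2, p-values rest largely on a spread estimated across probe sets, and the number of arrays limits the precision. Genes shown array by array were, in each role group, up to 4 of smallest unadjusted p over all pools and up to 2 without pool 2; of other lists, up to 3 were named. Members, lists and alternatives were chosen with earlier results of these data known. Probe sets whose names mark possible matches to several transcripts are used as annotated.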

Additional observations from a re-analysis of the deposited data

How the results depend on the processing

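Leaving out 1 replicate at a time gave 0 to 7 probe sets past the threshold (7 without replicate 1), 9 to 19 higher genes of 28 (9 without replicate 2) and medians of -0.33 to 1.02. Array weights, which rest on the residuals of 3 pairs, gave 2953 probe sets (1478 higher, 1475 lower), 1 gene of the group (Mvd, -1.57, adjusted p = 0.0116 against 0.830 to 1.00 in the other fits) and 10 higher genes. In the 5 arrays other than pool 2 ALDH-negative, fitted with no block, 8 genes were higher, and with pools 1 and 3 normalized alone 9. The fit without the replicate block called 0 probe sets and changed no call. Median centring moved the median of all probe sets to 0.22, against -0.04, and 24 of the 28 genes lay higher, against 21 in the values as deposited and 16 after quantile normalization. Lower in both pools 1 and 3 were 12 genes after median centring and 15 to 16 in the other settings tried, an alternative chosen after seeing the data; 28.4% and 26.2% of all genes did so as deposited and median-centred. The cause of these shifts was not tested.

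None of the 28 differences passed in the fit over all pools, so a turned sign is no reversal of a call. Signs turned as follows. With the values as deposited: Hmgcs1 0.54, Fdft1 0.10, Lss 0.34, Insig1 0.016, Npc1 0.46. With median centring: Hmgcs1 0.71, Pmvk 0.046, Fdft1 0.27, Lss 0.51, Hsd17b7 0.077, Ebp 0.14, Insig1 0.18, Npc1 0.63. With 5 arrays without block: Mvk 0.075, Ggps1 -0.28, Sqle -0.31, Cyp51 -0.56, Tm7sf2 -0.74, Msmo1 -0.73, Nsdhl -0.65, Sc5d -0.77, Dhcr7 -0.50, Srebf1 -0.018, Insig2 -0.038, Npc1 0.19. With pools 1 and 3 normalized alone: Mvk 0.15, Fdps -0.71, Sqle -0.21, Cyp51 -0.57, Tm7sf2 -1.17, Msmo1 -0.84, Nsdhl -1.07, Sc5d -0.84, Dhcr7 -0.83, Scap -0.044, Npc1 0.46. With array weights: Fdps -0.24, Cyp51 -0.48, Tm7sf2 -0.97, Msmo1 -0.67, Nsdhl -1.11, Sc5d -0.93, Dhcr7 -0.54, Npc1 0.24. With the mean of tested probe sets: Hmgcs1 0.31, Npc2 0.22, Sc5d -0.10. Over single replicates left out, the ranges were Hmgcs1 -0.57 to 0.26, Mvk -1.38 to 0.14, Fdps -0.68 to 2.13, Sqle -0.20 to 2.84, Lss -0.32 to 0.0896, Cyp51 -0.56 to 1.43, Tm7sf2 -1.10 to 1.11, Msmo1 -0.79 to 2.63, Nsdhl -0.9997 to 1.19, Ebp -0.34 to 0.00057, Sc5d -0.79 to 1.70, Dhcr7 -0.78 to 2.26, Scap -0.049 to 2.43, Npc1 -0.41 to 0.42.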
